A study of Mus musculus with 6 samples.

Results

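The genes that drive and carry out cell division were compared between hematopoietic stem cells (HSC) of mice without Nr4a3 and HSC of mice without Nr4a3 in which Nr4a1 was also targeted. The set held 50 genes, chosen by symbol from a list of mitotic kinases, cyclins, kinetochore proteins and their close partners, with kinesins left out. All 50 were found among the 24062 genes of the table, and all 50 passed the filter on low values, with at least 254 reads in every library. HSC are the cells that renew the blood, and NR4A1 and NR4A3 are related nuclear receptors that act as transcription factors. Control mice were Nr4a1 fl/fl; Nr4a3-/-, and the CDKO mice were Nr4a1 fl/fl; Nr4a3-/-; Rosa26-ERt2, so both groups lacked Nr4a3 and carried floxed Nr4a1 alleles. Tamoxifen was injected once a day for 4 days at 120 mg per kg in both groups, and HSC were sorted on day 5. There were 3 libraries per group, each from a pool of 3 to 5 mice. Rosa26 is a locus active in most cell types, so the excision need not be limited to HSC. The Rosa26-ERt2 allele was present in the CDKO group only, so its own effect and that of the Nr4a1 excision cannot be told apart, and no group with intact Nr4a3 was in the comparison. The labels name neither the age of the mice nor the surface markers of the sort.

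In a dividing cell, CDK1 bound to cyclins A and B phosphorylates many proteins at the entry into mitosis, together with the Polo-like and Aurora kinases. Kinetochores are then built on the centromeres of each chromosome and catch the microtubules of the spindle, while the spindle assembly checkpoint holds back the anaphase-promoting complex (APC/C) until every chromosome is attached. Most HSC of adult marrow rest outside the cell cycle, so these genes are commonly read as marks of division in this cell type.

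Promoters of many such genes are known to hold CCAAT boxes, which bind the factor NF-Y, and the cell cycle homology region with the letters TTTGAA, which is bound by the DREAM and MYBL2 complexes. Windows from 250 bases before to 50 bases after the start (RefSeq, GRCm38.p6) were matched by symbol for 44 of the 50 genes and for 10254 of the genes tested. CCAAT was found on either strand in 33 of the 44, or 75.0%, against 42.6% of the tested genes with a window. TTTGAA was found in 24 of the 44, or 54.5%, against 14.4%, and both were found in 22, or 50%, against 6.96%. The variant TTCGAA, which reads the same on both strands, was found in 5 of the 44, or 11.4%, against 2.497%. No match of one of these words is also a match of another. A match of letters is a description of the window and not a bound site. Stretches from 150 bases before to 20 bases after the start are shown for 3 genes that were higher in CDKO pools. They are also shown for 1 that did not pass the test and for 2 that were lower. The same letters stood around the starts of these genes, which moved in different ways. Each gene shown holds both CCAAT and TTTGAA, so the examples do not show how often these letters occur for each outcome. Capitals mark CCAAT and TTTGAA, written as ATTGG and TTCAAA where the match lies on the opposite strand. The stretches were chr4:118437324-118437493 on the minus strand, chr9:83834539-83834708 on the plus strand and chr9:70421535-70421704 on the minus strand for the higher genes, chr7:135716360-135716529 on the minus strand for the gene that did not pass, and chr1:189688067-189688236 on the minus strand and chr8:116921590-116921759 on the plus strand for the lower ones.
Cdc20: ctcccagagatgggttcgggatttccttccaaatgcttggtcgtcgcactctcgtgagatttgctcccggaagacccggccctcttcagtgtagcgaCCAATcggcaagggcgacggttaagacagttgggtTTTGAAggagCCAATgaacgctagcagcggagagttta
Ttk: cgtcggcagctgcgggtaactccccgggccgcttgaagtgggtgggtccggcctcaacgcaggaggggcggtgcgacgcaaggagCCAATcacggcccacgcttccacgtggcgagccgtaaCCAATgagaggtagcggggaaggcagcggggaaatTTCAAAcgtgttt
Ccnb2: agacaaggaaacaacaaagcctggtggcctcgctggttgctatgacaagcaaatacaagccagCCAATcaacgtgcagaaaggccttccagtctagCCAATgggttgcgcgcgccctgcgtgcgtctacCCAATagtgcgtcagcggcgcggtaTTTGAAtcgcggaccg
Mki67: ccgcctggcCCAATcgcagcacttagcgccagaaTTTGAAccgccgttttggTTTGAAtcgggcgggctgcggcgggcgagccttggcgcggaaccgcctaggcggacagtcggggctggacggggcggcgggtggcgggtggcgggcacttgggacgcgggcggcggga
Cenpf: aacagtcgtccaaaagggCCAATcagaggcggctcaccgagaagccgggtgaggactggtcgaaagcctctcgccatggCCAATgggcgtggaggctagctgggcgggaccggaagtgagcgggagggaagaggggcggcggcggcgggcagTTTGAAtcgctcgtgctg
Cenpn: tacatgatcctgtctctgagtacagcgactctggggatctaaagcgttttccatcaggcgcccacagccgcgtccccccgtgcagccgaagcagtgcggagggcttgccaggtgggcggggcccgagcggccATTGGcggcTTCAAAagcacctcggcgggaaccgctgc

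Windows with both CCAAT and TTTGAA were found for genes of every outcome. Of the 22 genes whose window held both, 15 were higher, 3 were lower and 4 did not pass the test described below, with a median log2 difference of 0.31. Of the other 22 genes with a window, 12 were higher, 4 were lower and 6 did not pass, with a median of 0.27. Neither set of letters was in the window of 9 genes, of which Plk4, Tacc3, Birc5, Cenpp and Mad1l1 were higher and Nuf2, Nusap1, Mad2l1 and Cenpt did not pass.

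Each library was deposited as counts per 1000000 counted reads (CPM), and the libraries held from 32863805 to 42772261 reads, so that 1 read was worth from 0.0234 to 0.0304 CPM. Genes with a mean of at least 10 reads were tested with limma on log2(CPM + 1), and a gene was called at a Benjamini-Hochberg adjusted p under 0.05 over all 13732 genes tested. The log2 difference is always CDKO minus control on that scale, which understates the change of genes with low values. As a check of the labels, Nr4a1 was 15.2, 13.4 and 12.9 CPM in the control pools and 8.52, 9.76 and 9.12 CPM in the CDKO pools (log2 difference -0.55, limma adjusted p = 0.00204), and Nr4a3 had 0 reads in all 6 libraries. Counts per gene do not separate deleted from kept exons. Of 16 HSC markers 15 were measured, led by Kit and Meis1, with 5 higher and 6 lower in CDKO pools. Their summed levels were 5382 to 5599 CPM in control and 5035 to 5189 CPM in CDKO pools. Counts of this and the following marker lists stand against 31.1% called higher and 35.2% lower among all genes tested. Lists of genes used as markers of other cells also differed between the groups. Neutrophil markers, led by Ngp and Ltf, were lower for 11 of 12 measured genes and summed to 803 to 1050.4 CPM in control and 17.0 to 91.6 CPM in CDKO pools. Granulocyte progenitor markers, led by Prtn3 and Mpo, were lower for 3 of 5 and summed to 392 to 424 CPM in control and 222 to 336 CPM in CDKO pools. The sums of both myeloid lists were lower in every CDKO pool than in any control pool. Erythroid markers, led by Car1 and Tfrc, were lower for 8 of 10 tested genes and summed to 581 to 641 CPM in control and 129.5 to 158 CPM in CDKO pools, with Hba-a1, Hba-a2 and Hbb-bt listed at 0 in all pools. Basophil and mast cell markers, led by Prss34 and Gata1, were lower for 5 of 6 tested genes and summed to 231 to 291 CPM in control and 33.5 to 41.8 CPM in CDKO pools, with Cma1 at 0. These sums did not overlap between the groups either. Megakaryocyte markers, led by Itga2b and Vwf, were higher for 8 and lower for 1 of 10 tested genes and summed to 434 to 457 CPM in control and 608 to 619 CPM in CDKO pools. Lymphocyte markers, led by Nkg7 and Cd79b, were higher for 3 and lower for 1 of 5 tested genes and summed to 85.5 to 99.6 CPM in control and 117 to 119.9 CPM in CDKO pools, with Ms4a1, Cd3e and Cd8a at 0. Macrophage and dendritic markers, led by Cd74 and Cd68, were higher for 4 and lower for 3 of 7 genes and summed to 587 to 661 CPM in control and 898 to 1002 CPM in CDKO pools. The sums of these last 3 lists were higher in every CDKO pool than in any control pool. Whether such cells were present in the pools, and their part in the differences of the mitotic genes, was not tested.

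Mitotic genes were mostly higher in CDKO HSC, but not uniformly so. Of the 50 genes 32 rose, 7 fell and 11 did not pass the test. In RNA from pooled cells, a larger share of cells in division and more RNA per dividing cell cannot be told apart. Among all genes tested, 31.1% were called higher and 35.2% lower, 66.2% in all, while 78.0% of the 50 were called. The median log2 difference of the 50 genes was 0.32, and that of all genes tested was -0.02. The CDKO pools did not overlap the control pools for 39 of the 50 genes, 32 with all CDKO pools higher and 7 with all lower. Over all genes tested 70.7% did not overlap, 33.4% with CDKO pools higher and 37.2% with them lower. With a difference of at least 1.5-fold on the log2(CPM + 1) scale required as well, 15 genes were higher and 1 was lower. Over all genes tested 12.0% were higher and 17.1% lower by that rule. In the authors' deposited table, 39 of the 50 genes had an adjusted p under 0.05, of which 32 were higher and 7 lower in CDKO. The libraries behind both sets of calls are the same. Within groups the SD was at most 15.6% of the mean for any of the 50 genes, with a median of 6.87% in control and 7.45% in CDKO pools.

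**Figure D1:**
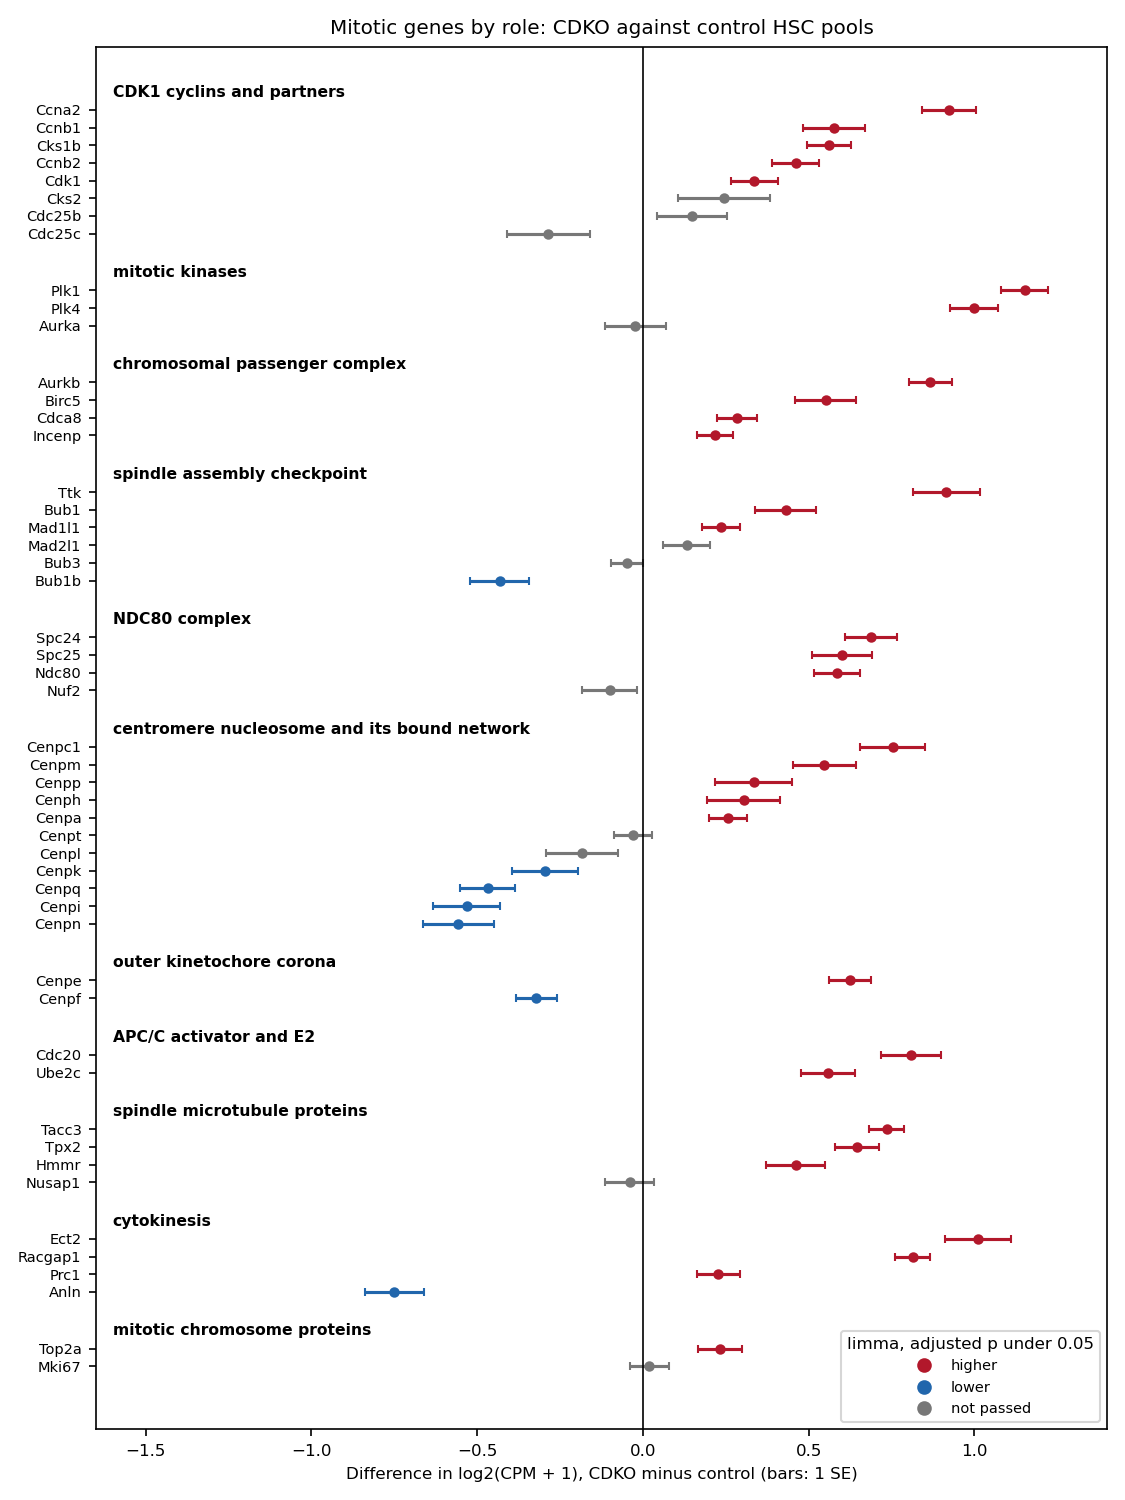
Difference in log2(CPM + 1) between CDKO and control pools (x axis, CDKO minus control) for each of the 50 genes (y axis), grouped by role, with bars of 1 SE and 3 pools per group. Red points passed the limma test as higher, blue points as lower and grey points did not pass. The values run from -0.75 for Anln to 1.15 for Plk1, and all 4 passenger complex genes lie to the right of 0.

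Of the 8 genes for CDK1, its cyclins and its partners, 5 rose and 3 did not pass, with a median log2 difference of 0.40. The counts of this and each later role group stand against 31.1% higher and 35.2% lower among all genes tested. Cdk1 (mm10 chromosome 10, 69335146 to 69352938), the kinase that drives mitosis, stood at 95.3, 87.9 and 90.9 CPM in the control pools and at 128, 104 and 116 CPM in the CDKO pools (log2 difference 0.34, SE 0.07, limma adjusted p = 0.00134). Its cyclin partner Ccna2, which acts from S phase to early mitosis, was 81.5, 70.4 and 73.6 CPM in control and 164, 132 and 136 CPM in CDKO pools (log2 difference 0.92, SE 0.08, limma adjusted p = 2.98e-06). For Ccnb1 (chromosome 13, 100778650 to 100786570), the main mitotic cyclin, the values were 31.0, 31.2 and 29.9 CPM in control and 51.6, 40.05 and 48.0 CPM in CDKO pools (log2 difference 0.58, SE 0.09, limma adjusted p = 0.000229). The lowest CDKO pool lay above the highest control pool for each of these 3 genes, and CDKO replicate 1 was the highest pool for each. Ccnb2, the second B-type cyclin, rose from 91.0 ± 8.12 to 125 ± 8.42 CPM (SD, n = 3), and Cks1b, a small subunit that binds CDKs, rose from 45.8 ± 0.183 to 68.1 ± 4.25 CPM. Annotated pseudogenes of Ccnb1 and Ccnb2 exist, and how reads shared with such copies were counted is not given in the sources used here.

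The other partners of CDK1 did not pass the test. Cks2, the paralog of Cks1b, was 8.11, 6.97 and 8.19 CPM in control and 10.2, 8.15 and 9.80 CPM in CDKO pools (log2 difference 0.24, limma adjusted p = 0.136). Cdc25b, a phosphatase that activates CDK1, was 42.6, 44.5 and 38.0 CPM in control and 54.8, 43.8 and 41.1 CPM in CDKO pools (log2 difference 0.15, limma adjusted p = 0.235). Its relative Cdc25c was 23.1, 19.0 and 18.3 CPM in control and 18.6, 15.4 and 15.1 CPM in CDKO pools (log2 difference -0.28, limma adjusted p = 0.0620). The groups overlapped for all 3 of these genes. Cdc25c passed as lower in 5 other fits: without CDKO replicate 1 (limma adjusted p = 0.0263), with the replicate block (0.0337), among genes with a mean of at least 10 CPM (0.0478), with a loess adjustment for transcript length and GC (0.0485) and with DESeq2 (0.0387). Over all its fits the adjusted p ran from 0.0263 to 0.227. Cks2 passed as higher with quantile normalization (limma adjusted p = 0.0286), and its adjusted p ran from 0.0286 to 0.340 over all its fits.

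Of the 3 kinases listed beside CDK1, 2 rose and 1 did not pass. Plk1 (chromosome 7, 122159439 to 122169873), which acts at mitotic entry, the kinetochore and cytokinesis, had the largest difference of the 50 genes. It stood at 48.2, 45.6 and 42.0 CPM in the control pools and at 109.5, 98.6 and 97.3 CPM in the CDKO pools, 2.25-fold higher (log2 difference 1.15, SE 0.07, limma adjusted p = 3.14e-07). Plk4 (chromosome 3, 40800019 to 40816883), the kinase that starts the copying of centrioles, stood at 38.4, 36.8 and 42.1 CPM in the control pools and at 83.6, 74.1 and 79.6 CPM in the CDKO pools, 2.02-fold higher (log2 difference 1.00, SE 0.07, limma adjusted p = 8.42e-07). The CDKO pools of both genes lay far above the control pools. Aurka, the Aurora kinase of centrosomes and spindle poles, stood at 43.5, 36.8 and 34.5 CPM in the control pools and at 38.6, 37.8 and 36.1 CPM in the CDKO pools and did not pass (log2 difference -0.02, SE 0.09, limma adjusted p = 0.837), with all 3 CDKO values inside the range of the control values. Its relative Aurkb (chromosome 11, 69045647 to 69051664), the Aurora kinase of the centromere and midzone, rose from 64.2, 58.5 and 60.3 CPM in the control pools to 119.8, 104 and 113 CPM in the CDKO pools (log2 difference 0.87, SE 0.06, limma adjusted p = 1.01e-06). The ratio of Aurkb to Aurka within a library, which does not depend on the scaling of libraries, ran from 1.47 to 1.75 in the control pools and from 2.74 to 3.13 in the CDKO pools.

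All 4 genes of the chromosomal passenger complex, which corrects faulty attachments and guides cytokinesis, rose. Beside its kinase Aurkb, Birc5 (survivin), which docks the complex on chromosomes, was 54.1, 42.6 and 48.4 CPM in control and 78.7, 67.4 and 67.4 CPM in CDKO pools (log2 difference 0.55, SE 0.09, limma adjusted p = 0.000270). Incenp, the scaffold, was 117, 113 and 108 CPM in control and 137, 124 and 132 CPM in CDKO pools (log2 difference 0.22, SE 0.05, limma adjusted p = 0.00385), the smallest difference of the complex. Cdca8 (borealin) rose from 103 ± 6.44 to 126 ± 6.77 CPM (log2 difference 0.28). The groups did not overlap for any of the 4, and the sizes differed, from 1.16-fold for Incenp to 1.84-fold for Aurkb.

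Genes of the spindle assembly checkpoint went in different directions. Ttk (chromosome 9, 83834689 to 83872389), the kinase also called MPS1 that starts the checkpoint signal, stood at 20.1, 21.7 and 25.5 CPM in the control pools and at 46.9, 41.7 and 40.4 CPM in the CDKO pools (log2 difference 0.92, SE 0.10, limma adjusted p = 1.45e-05). Bub1, a kinase that recruits checkpoint proteins to kinetochores, stood at 60.3, 57.7 and 50.8 CPM in the control pools and at 86.9, 67.9 and 74.4 CPM in the CDKO pools (log2 difference 0.43, SE 0.09, limma adjusted p = 0.00151). Both were higher in every CDKO pool than in any control pool. Bub1b (chromosome 2, 118598211 to 118641591), which encodes BUBR1, a part of the complex that inhibits CDC20, went the other way, from 121, 98.1 and 95.7 CPM in the control pools to 85.1, 74.1 and 72.3 CPM in the CDKO pools (log2 difference -0.43, SE 0.09, limma adjusted p = 0.00124). Within a library, the ratio of Bub1 to Bub1b ran from 0.4999 to 0.588 in the control pools and from 0.917 to 1.03 in the CDKO pools. That these ranges do not overlap follows from the opposite moves of Bub1 and Bub1b. Mad1l1, the kinetochore anchor of MAD2, rose from 66.8 ± 2.91 to 78.8 ± 2.23 CPM (log2 difference 0.24). Mad2l1, which encodes MAD2, the checkpoint protein that binds CDC20, was 42.1, 42.1 and 47.3 CPM in control and 49.2, 47.7 and 47.3 CPM in CDKO pools, short of the threshold (limma adjusted p = 0.122). It passed as higher in 3 other fits, with a loess adjustment for transcript length and GC (limma adjusted p = 0.00907), with DESeq2 (0.0443) and without control replicate 3 (0.04995), and the adjusted p ran from 0.00907 to 0.289 over all its fits. Bub3, the partner of both BUB1 and BUBR1, was 203, 183 and 197 CPM in control and 193, 187 and 183 CPM in CDKO pools, short of the threshold (limma adjusted p = 0.410), and its groups overlapped.

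**Figure D2:**
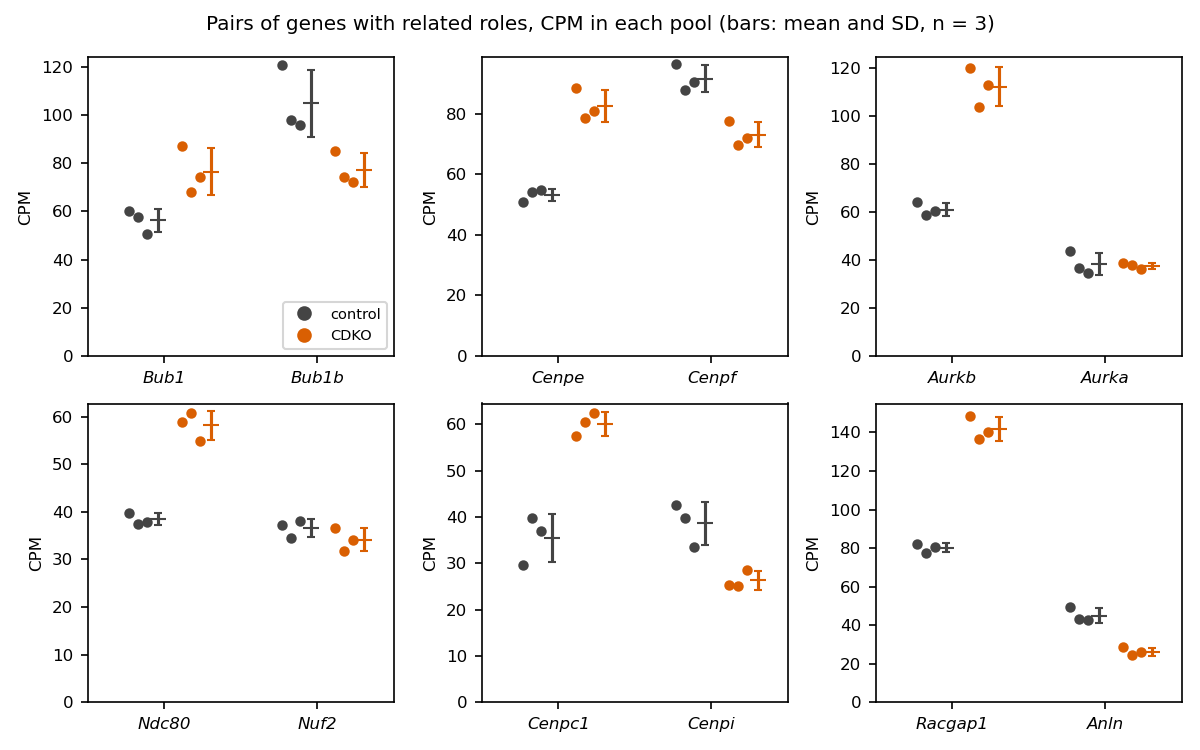
CPM (y axis, from 0) in each control pool (dark points) and each CDKO pool (orange points) for 6 pairs of genes with related roles, with the mean and SD of 3 pools beside the points. In each pair the first gene is higher in all 3 CDKO pools than in any control pool, and the second is lower (Bub1b, Cenpf, Cenpi, Anln) or overlaps (Aurka, Nuf2). The pairs were chosen after their values had been seen.

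The NDC80 complex is the rod that joins the kinetochore to the microtubule, and 3 of its 4 genes rose. Spc24 was 60.1, 55.0 and 58.8 CPM in control and 106, 84.9 and 92.1 CPM in CDKO pools (log2 difference 0.69, SE 0.08, limma adjusted p = 1.68e-05), and Spc25, its partner at the inner end of the rod, was 42.2, 34.2 and 38.3 CPM in control and 64.1, 54.4 and 56.7 CPM in CDKO pools (log2 difference 0.60, SE 0.09, limma adjusted p = 0.000126). Ndc80, which binds the microtubule, was 39.8, 37.5 and 37.9 CPM in control and 58.9, 60.8 and 54.8 CPM in CDKO pools (log2 difference 0.59, SE 0.07, limma adjusted p = 2.13e-05). All CDKO pools were above all control pools for these 3 genes. Nuf2, the direct partner of NDC80 in the complex, was 37.3, 34.5 and 38.2 CPM in control and 36.6, 31.7 and 34.1 CPM in CDKO pools, short of the threshold (log2 difference -0.10, SE 0.08, limma adjusted p = 0.303). The ratio of Ndc80 to Nuf2 within a library ran from 0.992 to 1.09 in the control pools and from 1.61 to 1.92 in the CDKO pools.

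The centromere nucleosome and the network of proteins bound to it were split. Of 11 genes 5 were higher, 4 were lower and 2 did not pass, with a median log2 difference of -0.03. Over all genes tested, 31.1% were higher and 35.2% lower. Cenpa (chromosome 5, 30666777 to 30674830), the histone H3 variant that marks the centromere, stood at 83.4, 74.0 and 76.6 CPM in the control pools and at 94.0, 93.1 and 92.5 CPM in the CDKO pools (log2 difference 0.26, SE 0.06, limma adjusted p = 0.00209). Cenpc1 (chromosome 5, 86012024 to 86065583), which encodes CENP-C, the link from that nucleosome to the outer kinetochore, stood at 29.7, 39.8 and 37.0 CPM in the control pools and at 57.4, 60.5 and 62.4 CPM in the CDKO pools (log2 difference 0.75, SE 0.10, limma adjusted p = 4.59e-05), the largest rise of the network. Cenpm was 22.1, 20.9 and 25.7 CPM in control and 33.6, 34.2 and 33.6 CPM in CDKO pools (log2 difference 0.55, SE 0.09, limma adjusted p = 0.000343). The CDKO pools lay above all control pools for these 3 genes. Cenpn (chromosome 8, 116921730 to 116941507), whose protein recognises the centromere nucleosome directly, fell from 27.3, 24.4 and 27.9 CPM in the control pools to 19.8, 16.03 and 17.4 CPM in the CDKO pools (log2 difference -0.56, SE 0.11, limma adjusted p = 0.000768). Cenpi fell from 38.6 ± 4.65 to 26.3 ± 2.02 CPM (a log2 difference of -0.53 with a limma adjusted p = 0.000723), and Cenpq fell from 44.0 ± 2.41 to 31.5 ± 2.42 CPM (a log2 difference of -0.47 with a limma adjusted p = 0.000405).

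Some known subcomplexes of the network held genes called in both directions. With 31.1% of all genes tested called higher and 35.2% lower, sets of a few genes can hold both without being unusual. CENP-H, -I, -K and -M form one unit, and Cenph and Cenpm rose while Cenpi and Cenpk fell. Cenph rose from 14.4 ± 0.592 to 18.1 ± 1.61 CPM (limma adjusted p = 0.0286) and Cenpk fell from 20.4 ± 0.580 to 16.4 ± 0.814 CPM (limma adjusted p = 0.0202). Of the pair CENP-L and CENP-N, Cenpn fell and Cenpl, at 30.7, 27.3 and 31.1 CPM in control and 28.5, 27.7 and 22.2 CPM in CDKO pools, did not reach the threshold (limma adjusted p = 0.151). CENP-P and CENP-Q belong to another unit, in which Cenpp rose from 14.1 ± 0.871 to 18.1 ± 1.96 CPM (limma adjusted p = 0.0244) and Cenpq fell. Cenpt, whose protein bridges DNA and the NDC80 complex, was 84.8, 78.4 and 77.7 CPM in control and 76.6, 77.9 and 81.0 CPM in CDKO pools, short of the threshold (limma adjusted p = 0.647). The ratio of Cenpm to Cenpn within a library ran from 0.809 to 0.921 in the control pools and from 1.69 to 2.14 in the CDKO pools, and that of Cenpc1 to Cenpi ran from 0.697 to 1.10 in the control pools and from 2.18 to 2.42 in the CDKO pools. Cenph lost its call with a loess adjustment for transcript length and GC (limma adjusted p = 0.0517). Cenpk lost its call with quantile normalization (limma adjusted p = 0.0738). The calls of 3 genes were lost in some limma fits that left out 1 library. For Cenph these were the fits without control replicate 2 or 3 and without either CDKO replicate 2 or CDKO replicate 3 (in order, limma adjusted p = 0.0759, 0.0737, 0.0552 and 0.104). Over all fits of Cenph the adjusted p ran from 0.00251, with DESeq2, to 0.104. For Cenpk the fits that left out replicate 3 of either group lost it (limma adjusted p = 0.0598 and 0.0595), and the adjusted p over all its fits ran from 0.00300, with DESeq2, to 0.0738. For Cenpp it was lost without control replicate 2 or 3 and without either CDKO replicate 1 or CDKO replicate 2 (in order, limma adjusted p = 0.0848, 0.0549, 0.0840 and 0.0726). Over all fits of Cenpp the adjusted p ran from 0.00320, with DESeq2, to 0.0848.

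**Figure D3:**
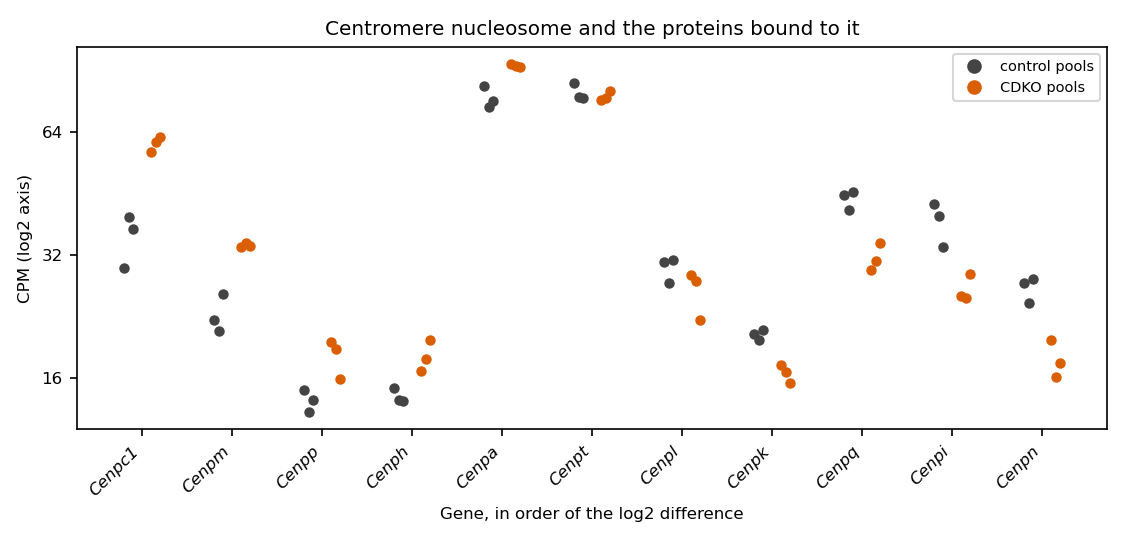
CPM (y axis, log2 axis) of the 11 genes of the centromere nucleosome and its bound network (x axis, in order of the log2 difference) in each of the 3 control pools (dark points) and 3 CDKO pools (orange points). The first 5 genes are higher in every CDKO pool than in any control pool, Cenpt and Cenpl overlap, and the last 4 are lower in every CDKO pool.

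The 2 large proteins of the outer kinetochore corona moved apart. Cenpe (chromosome 3, 135212537 to 135273611), a motor that helps chromosomes to align, stood at 50.9, 54.1 and 54.7 CPM in the control pools and at 88.6, 78.6 and 80.8 CPM in the CDKO pools (log2 difference 0.62, SE 0.06, limma adjusted p = 8.43e-06). Cenpf (chromosome 1, 189640606 to 189688086), which binds microtubules and dynein regulators, stood at 96.5, 88.0 and 90.5 CPM in the control pools and at 77.7, 69.8 and 72.1 CPM in the CDKO pools (log2 difference -0.32, SE 0.06, limma adjusted p = 0.000676). The groups did not overlap for either gene, and the ratio of Cenpe to Cenpf ran from 0.527 to 0.615 in the control pools and from 1.12 to 1.14 in the CDKO pools.

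Cdc20 and Ube2c, which work with the APC/C at the exit from mitosis, both rose. Cdc20, the activator of the APC/C and the target of the checkpoint, stood at 80.1, 63.2 and 61.5 CPM in the control pools and at 128, 114 and 117 CPM in the CDKO pools (log2 difference 0.81, SE 0.09, limma adjusted p = 1.52e-05). Ube2c, the enzyme that delivers ubiquitin to the APC/C, stood at 71.1, 56.7 and 61.8 CPM in the control pools and at 99.8, 91.6 and 88.6 CPM in the CDKO pools (log2 difference 0.56, SE 0.08, limma adjusted p = 9.89e-05). Of the spindle proteins, Tacc3, which stabilises microtubule bundles at the spindle, was 89.7, 84.5 and 84.3 CPM in control and 151, 143 and 138 CPM in CDKO pools (log2 difference 0.74, SE 0.05, limma adjusted p = 8.10e-07). These 3 genes had no overlap between groups. Tpx2, which activates Aurora A on the spindle, was 86.6, 81.7 and 83.7 CPM in control and 147, 124 and 125 CPM in CDKO pools (log2 difference 0.65, SE 0.07, limma adjusted p = 8.40e-06). Hmmr, a spindle pole protein, rose from 51.1 ± 4.76 to 70.7 ± 7.86 CPM (log2 difference 0.46). Nusap1, which binds spindle microtubules near chromosomes, was 113, 99.9 and 96.8 CPM in control and 110.4, 96.6 and 94.3 CPM in CDKO pools, overlapped between groups and did not pass (log2 difference -0.04, SE 0.07, limma adjusted p = 0.647).

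In cytokinesis, 3 genes rose and 1 fell. Ect2 (chromosome 3, 27097222 to 27153878), the exchange factor that activates RHOA at the division plane, stood at 46.7, 38.4 and 36.5 CPM in the control pools and at 92.5, 75.2 and 79.9 CPM in the CDKO pools, 2.04-fold higher (log2 difference 1.01, SE 0.10, limma adjusted p = 6.13e-06). Racgap1 (chromosome 15, 99620496 to 99651656), the protein that recruits ECT2 to the midzone, stood at 82.3, 77.7 and 80.7 CPM in the control pools and at 149, 137 and 140.0 CPM in the CDKO pools (log2 difference 0.81, SE 0.05, limma adjusted p = 4.03e-07). Both were well separated between the groups. Prc1, which bundles the midzone microtubules, rose from 138 ± 8.18 to 162 ± 14.3 CPM (limma adjusted p = 0.00959), a call lost without control replicate 2 (limma adjusted p = 0.0508). Over all fits of Prc1 the adjusted p ran from 0.000928, with DESeq2, to 0.0508. Anln (chromosome 9, 22332012 to 22389188), the scaffold anillin that links RHOA, actin and myosin in the contractile ring, had the largest fall of the 50 genes. It stood at 49.4, 43.0 and 42.7 CPM in the control pools and at 28.5, 24.4 and 26.2 CPM in the CDKO pools (log2 difference -0.75, SE 0.09, limma adjusted p = 2.50e-05), with every CDKO pool below every control pool. The ratio of Racgap1 to Anln ran from 1.67 to 1.89 in the control pools and from 5.22 to 5.60 in the CDKO pools.

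Of the 2 genes of the set most used as proliferation markers, Top2a rose and Mki67 did not pass. Top2a (chromosome 11, 98992943 to 99024189), the topoisomerase that untangles sister chromosomes, stood at 368, 327 and 325 CPM in the control pools and at 442, 382 and 377 CPM in the CDKO pools (log2 difference 0.23, SE 0.07, limma adjusted p = 0.00871). Mki67 (chromosome 7, 135689784 to 135716361), which coats mitotic chromosomes and is a general marker of cycling cells, stood at 348, 321 and 312 CPM in the control pools and at 353, 336 and 306 CPM in the CDKO pools and did not pass (log2 difference 0.02, SE 0.06, limma adjusted p = 0.775). Top2a was higher in all CDKO pools by a narrow margin, and Mki67 overlapped, with the highest and the lowest of its 6 values both in CDKO pools. Set over Mki67 in the same library, which removes the library's scaling, 32 of the other 49 genes were higher in all CDKO pools than in any control pool, 9 were lower and 8 overlapped. By the same ratio, 27.2% of all other genes tested were higher in all CDKO pools and 32.8% were lower. The 9 were the 7 genes that fell, Cdc25c and Cenpl. The ratio of Plk1 to Mki67 ran from 0.135 to 0.142 in the control pools and from 0.293 to 0.318 in the CDKO pools, that of Ccnb1 to Mki67 ran from 0.089 to 0.097 in the control pools and from 0.119 to 0.157 in the CDKO pools, and that of Anln to Mki67 ran from 0.134 to 0.142 in the control pools and from 0.073 to 0.086 in the CDKO pools. These ratios are descriptions with no test.

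**Figure D4:**
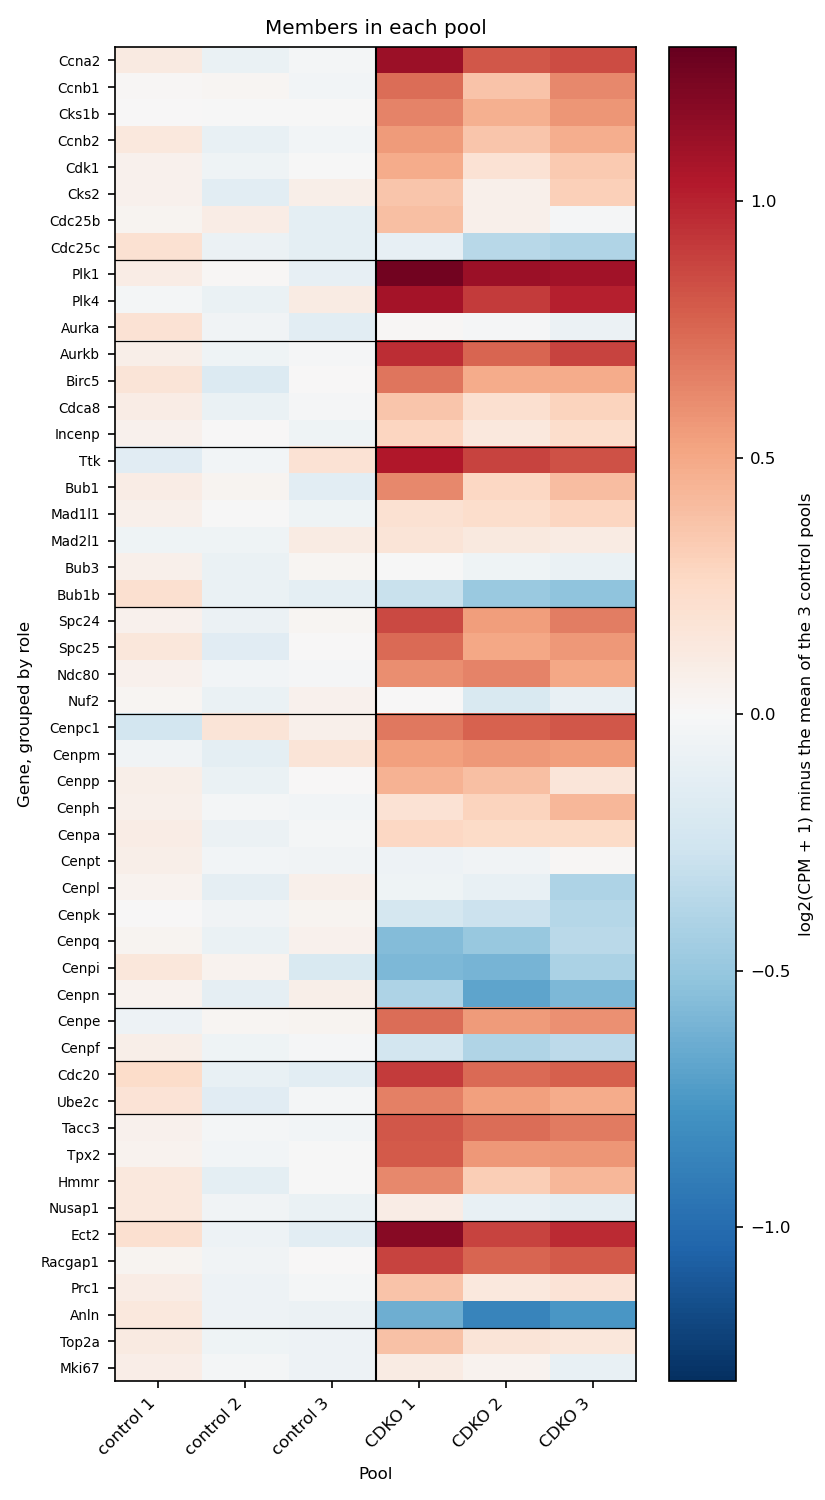
Heat map of log2(CPM + 1) minus the mean of the 3 control pools for each of the 50 genes (y axis, grouped by role) in each of the 6 pools (x axis). Red is higher and blue lower than the control mean. The 3 CDKO columns share their colors for most genes, and CDKO replicate 1 is the highest CDKO pool for 42 of the 50 genes.

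Other genes of mitosis were taken from lists of the same pathways, and their counts stand against 31.1% higher and 35.2% lower, 66.2% in all, among all genes tested. Of the genes that regulate CDK1 and mitotic entry, 10 of 20 were higher, 5 were lower and 5 did not pass, with a median log2 difference of 0.11. Bora, which helps Aurora A to activate PLK1, had a log2 difference of 1.17, Gtse1, a microtubule protein of G2 phase, one of 1.01 and Ccnf, a cyclin-like ubiquitin ligase subunit, one of 0.72. Among the lower genes were Gsg2, the kinase haspin that places the passenger complex, at -0.52, Ppp2r2a, a subunit of the phosphatase that opposes CDK1, at -0.26, and Ppp2r2d, a related subunit, at -0.33.

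Of the other kinetochore and centromere genes, 10 of 24 were higher, 6 were lower and 8 did not pass, with a median log2 difference of 0.16. Nsl1 and Pmf1, subunits of the MIS12 complex that receives NDC80, rose by log2 differences of 1.34 and 0.94, and Kntc1, a subunit of the ROD complex of the corona, by 0.70. Zw10, another subunit of that same corona complex, fell, with a log2 difference of -0.61, and so did Cenpo, of the unit that holds CENP-P and CENP-Q, at -0.94, and Hjurp, the chaperone that loads CENP-A, at -0.71. For the genes of condensin, cohesin and separase, 12 of 25 were higher, 5 were lower and 8 did not pass, with a median log2 difference of 0.12. Sgol1, which protects cohesin at centromeres, had a log2 difference of 1.00, Ncaph, a condensin subunit, one of 0.89 and Cdca5 (sororin), which keeps cohesin on chromosomes, one of 0.73. Rad21, a ring subunit of cohesin, fell, with a log2 difference of -0.37, as did Esco1, which acetylates cohesin, at -0.47, and Smc4, a core subunit of condensin, at -0.28.

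For subunits of the APC/C and its coactivator, 7 of 16 were higher, 5 were lower and 4 did not pass, with a median log2 difference of 0.15. Shares among all genes tested were 31.1% higher and 35.2% lower. Anapc1, the largest scaffold subunit, had a log2 difference of 0.29, Anapc15 one of 0.56 and Anapc4 one of 0.37, while Anapc2, the cullin subunit, stood at -0.36, Cdc27 at -0.40 and Fzr1, the activator CDH1 that acts after mitosis, at -0.28. Of the transcription factors of the DREAM, MYBL2, FOXM1 and NF-Y complexes, 7 of 16 were higher, 4 were lower and 5 did not pass, with a median log2 difference of 0.10. Foxm1, which activates genes of G2 phase and mitosis, was 47.8, 45.3 and 47.0 CPM in control and 84.2, 72.5 and 84.0 CPM in CDKO pools (log2 difference 0.76, SE 0.07, limma adjusted p = 4.03e-06). Rbl1 (p107), a repressor of the family of the retinoblastoma protein, had a log2 difference of 0.42, and Rbbp4, a MuvB subunit, one of 0.32. E2f5, a repressor E2F, fell from 19.5, 19.4 and 19.7 CPM in the control pools to 7.61, 10.2 and 6.55 CPM in the CDKO pools (log2 difference -1.20, SE 0.15, limma adjusted p = 2.91e-05), Tfdp2, an E2F partner, had a log2 difference of -0.46, and Nfyc, a subunit of NF-Y, one of -0.23.

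Exons of 16 of the 50 genes share bases with another annotated gene (GENCODE M21). For 15 of them the other gene lies on the opposite strand, and for Top2a it is a small nucleolar RNA gene on the same strand. The longest shared stretches were 911 bases for Prc1 with Rccd1, 623 bases for Cdc25c with Gm3550 and 592 bases for Ube2c with Tnnc2. In the centromere network, Cenpp shared up to 315 bases with Ippk or Aspn, Cenpk 233 with Ppwd1, Cenpq 95 with Mut and Cenpt 8 with Tsnaxip1. The amplification and library kits named in the labels do not mark strand, so reads from such stretches cannot be assigned to 1 of the 2 genes, and the levels of these genes carry that uncertainty in both groups.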

How the data were processed

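RNA of sorted mouse HSC was measured in 6 libraries, 3 control and 3 CDKO, each a pool of mice. Per the submitters' processing notes, TopHat2, HTSeq and DESeq2 were used with mm10, and no versions or annotation are named. The authors deposited 1 table of 24062 genes with CPM per library, a mean normalized signal, a log2 fold change, a test score and p-values. Genes in 12 rows whose symbols had become dates and 2 rows sharing a symbol were left out. CPM steps gave whole reads for 99.9989% of values above 0 (within 0.01 reads of a whole number), and libraries held 32863805 to 42772261 reads, so 3 reads were worth 0.0701 to 0.0913 CPM, which covers counting error only.

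Genes with a mean of at least 10 reads (13732) were tested with limma 3.58.1 (R 4.3.3) on log2(CPM + 1), with a mean-variance trend and Benjamini-Hochberg adjustment, over all 6 libraries. The alternatives were edgeR 4.0.16 and DESeq2 1.42.0 on the recovered reads, other scalings, filters, pseudocounts and thresholds, a replicate block, and leaving out each library. The limma step was tested on simulated data. The members and lists were chosen with earlier results of these data known, so their counts are descriptions. Of 234 list entries, 231 were matched by symbol, and 1 further marker is not reported here. Values by pool are given for the 2 members of each role with the largest difference, the 1 with the smallest, all that did not pass and a few well-known members, and from each pathway list the 3 genes with the smallest p in each direction. Ratio pairs were chosen after their values were seen. Where the first gene of a pair was higher in every CDKO pool and the second lower, the separation of their ratio follows from that. Promoters came from RefSeq (GRCm38.p6) and gene positions from GENCODE M21. Protein sequences were not used here.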

Additional observations from a re-analysis of the deposited data

How the results depend on the processing

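Of the 50 mitotic genes, 43 kept their call under all 17 other fits and scalings. The exceptions were Cks2, Cdc25c, Mad2l1, Cenph, Cenpk, Cenpp and Prc1, with log2 differences from -0.29 for Cenpk to 0.33 for Cenpp. Leaving out 1 library gave 36 to 39 members called, 29 to 32 higher and 6 to 8 lower, with a median log2 difference from 0.27 to 0.35 and 8254 to 8707 genes called in all. At an adjusted p under 0.05 and at least 1.5-fold on the log2(CPM + 1) scale, 3999 genes were called in all and 16 members, 15 higher and 1 lower. A sign change was seen only for 4 genes that had not passed. As log2 differences with 1 library left out, Aurka ran from -0.0931 to 0.0716, Cenpt from -0.0539 to 0.00859, Mki67 from -0.0254 to 0.0757 and Nusap1 from -0.109 to 0.0267. The sign of Aurka turned without control replicate 1, without CDKO replicate 3 (0.00482) and with quantile normalization (0.0129). That of Cenpt turned when control replicate 1 was left out, that of Mki67 without control replicate 3 (-0.0123) or CDKO replicate 1, and that of Nusap1 without control replicate 1 or CDKO replicate 3 (0.00320). The cause of these changes was not tested. Over all its fits, Mki67 had a log2 difference from -0.0254 to 0.136, with a limma adjusted p from 0.0564 to 0.983.

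With the replicate number as a block, 9241 genes were called, with 32 members higher and 8 lower. Same-numbered control and CDKO libraries had correlations of 0.0518, 0.0483 and -0.0120 of their deviations from the group means. Whether libraries with the same number shared a day or a batch was not tested. Every member had at least 254 reads in each library, and Cks2, the lowest, was not tested at a mean of at least 10 CPM.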

Other observations

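The pools of a group ranked alike over the 50 genes. CDKO replicate 1 was the highest CDKO pool for 42 genes, and control replicate 1 was the highest control pool for 36. The median log2 difference of the 50 genes from the control mean was 0.42 in CDKO replicate 1, 0.26 in CDKO replicate 2 and 0.32 in CDKO replicate 3.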
